A study of Mus musculus with 16 samples.

Results

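The mitochondrial chromosome of mouse male germ cells was examined through every summit that 16 ATAC-seq peak lists placed on chrM. ATAC-seq marks DNA that the Tn5 transposase can reach, and a summit is the position of highest coverage inside a called peak, of which a wide peak can hold several. All lines with chrM as chromosome were taken, which gave 576 of 1431525 lines, and these summits lay in 53 peaks. No measured value entered this choice. Spermatogonia were taken from C57BL/6 testes at postnatal day 7, either as the Thy1+ fraction (Thy1), which includes stem cells, or as the c-Kit+ fraction of differentiating cells (cKit). Pachytene spermatocytes (PS), which are in meiotic prophase, and round spermatids (RS), the haploid cells after meiosis, came from adult C57BL/6 testes. Each stage was taken from wild-type mice and from Scml2-knockout (Scml2-KO) mice, which lack a germline Polycomb-related protein, and each of the 8 groups held 2 libraries. About 500000 spermatogonia, 250000 PS or 1000000 RS entered a reaction after lysis and collection of nuclei. No label ties the 2 replicates of a group to different animals. Each p-value therefore reflects variation among libraries, and part or all of it may be technical. Stage and age cannot be told apart between spermatogonia and adult germ cells. Nor can stage and the number of cells per reaction, there or between PS and RS.

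Mitochondrial DNA is a small circle present in many copies per cell. It carries genes for subunits of the respiratory chain and of ATP synthase, for the ribosomal RNAs of the organelle and for its transfer RNAs, and a non-coding control region that holds the heavy-strand origin of replication and the promoters. It is packed by TFAM and other proteins of the nucleoid rather than by nucleosomes, so Tn5 reads it readily, and what remains of it after the nuclei are collected appears in ATAC-seq libraries as a high signal. Germ cells change the number and shape of their mitochondria along spermatogenesis. In such libraries, more mitochondria carried over and easier access to their DNA cannot be told apart.

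Promoter peaks of meiotic and spermatid markers separated the stages as labelled. All 6 spermatid markers had 0 promoter peaks in spermatogonia and a median of 100% in adult germ cells, whereas the 6 meiotic markers had medians of 16.7% and 100%. The 8 spermatogonial markers separated them less, with medians of 75% and 56.3%, and Kit had a promoter peak in all 16 libraries. The lists held 21171 to 233959 lines. Peaks named as Scml2 promoter stood in 6 of 8 wild-type and 3 of 8 Scml2-KO libraries, which does not check the deletion. Markers of somatic testis cells also moved with stage: the median share with a promoter peak was 100% in spermatogonia and 20% in adult cells for 5 Sertoli markers, 100% and 25% for 4 peritubular markers, 100% and 0% for 3 endothelial markers, 50% and 0% for 3 Leydig markers, and 33.3% and 0% for 3 immune markers, of which Ptprc and Adgre1 had none anywhere. Their part in the stage comparisons below was not tested. Adult replicate 1 libraries stood apart from the other 12 libraries on the mitochondrial chromosome, as described below. Replicate 1 had the longer list and the shorter shortest peak (a length explained below) in 8 of 8 groups, so tests of summit number and covered share are also given within each replicate number.

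Peaks covered most of the circle, and the uncovered stretch lay in the same place in every library. In all 16 libraries a block ran from base 1 to a base between 6476 and 6537, inside COX1, a catalytic subunit of cytochrome c oxidase. A further block ran from a base between 10898 and 10955, inside ND4, a complex I subunit, to base 16299, the last base. Base 16299 adjoins base 1 on the circle, so both blocks form 1 arc. All 16 libraries covered 11821 bases, 72.5% of the chromosome, and 3844 bases, 23.6%, lay in no peak of any library. The bases never covered were 6538 to 9327, 9596 to 9702 and 9951 to 10897 of chrM (mm10).

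**Figure D1:**
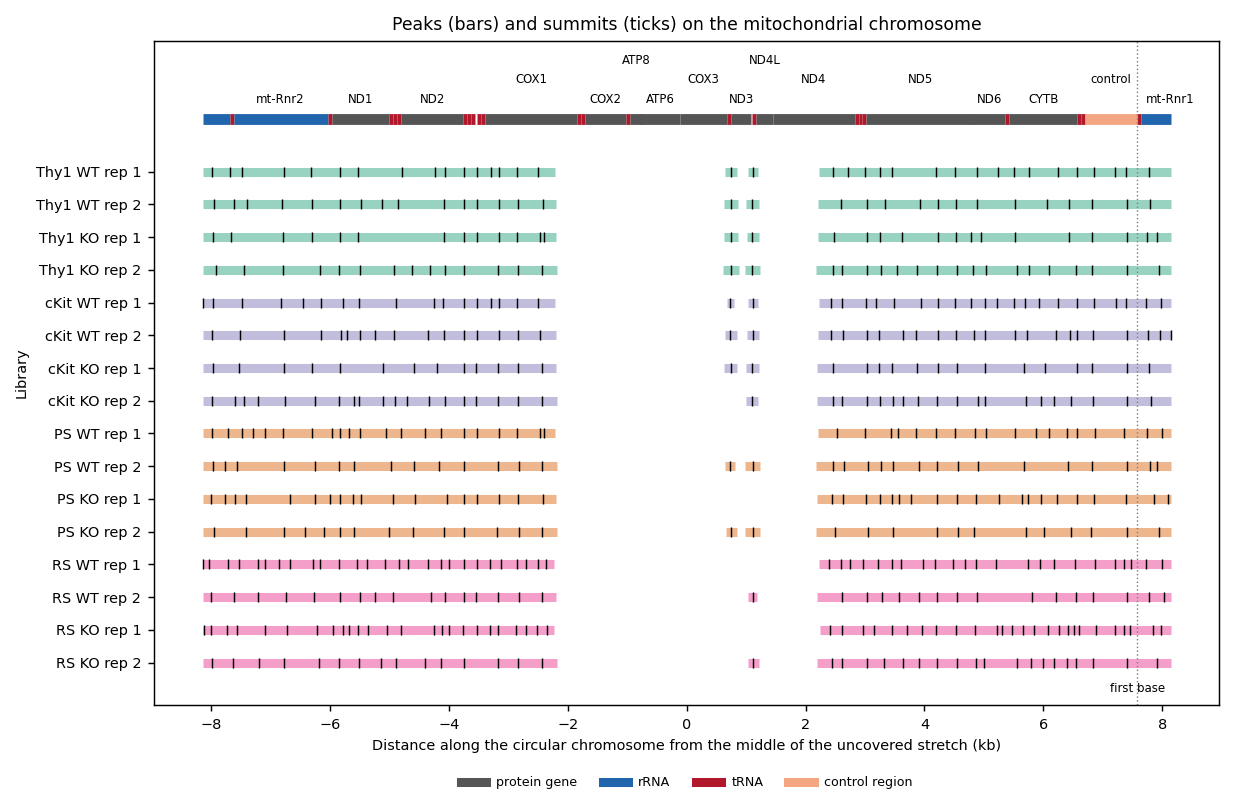
Peaks (bars) and summits (ticks) of each of the 16 libraries against distance in kb along the circle from the middle of the uncovered stretch, with genes above; the dotted line marks the first base. All libraries share 1 long arc, and 1 or 2 short peaks inside the uncovered stretch appear in 12 of them.

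By gene, 24 of 37 mitochondrial genes were covered from end to end in all 16 libraries, 6 in none, and 7 in part or in some libraries. The 5 protein genes covered throughout were ND1, ND2, ND5 and ND6, which are complex I subunits, and CYTB, the cytochrome b of complex III. Both ribosomal RNA genes, mt-Rnr1 and mt-Rnr2, and 17 of 22 tRNA genes were covered throughout as well. The 6 genes without any coverage were the neighbours TrnS1, TrnD, COX2, TrnK, ATP8 and ATP6, which encode 3 tRNAs, a cytochrome c oxidase subunit and both mitochondrial subunits of ATP synthase. COX1 was covered over 74.4% to 78.3% of its length and ND4 over 42.8% to 47.0%.

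The edges of the blocks followed 1 property of each list, its shortest peak. That length was between 96 and 151 bp, was the commonest peak length in all 16 lists, and was shared by 9.38% to 21.2% of a list's peaks. Peak callers of this kind extend each read to an estimated fragment length and by default call no peak shorter than that, as background. The first block ended 6380 to 6389 bases into the chromosome once the shortest peak length was subtracted, and the other began at 11046 to 11052 once it was added. The corrected edges were thus closer together across libraries than the deposited ones. Across the 16 libraries the length of the stretch between the blocks, 4360 to 4478 bp, had a Pearson r of -0.99 with the shortest peak length, given as a description.

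Within that stretch, 2 small peaks recurred, here called islands A and B. Island A had its summit between 9449 and 9469, where tRNA-Gly (TrnG) meets ND3, a complex I subunit, and was called in 9 libraries. Island B had its summit between 9821 and 9834 in TrnR, the tRNA-Arg gene, and was called in 12 libraries. A pileup, the number of extended reads over the summit as the authors deposited it and not scaled to library size, describes their height. In Thy1 the pileup of island A was 29 and 38 in wild type and 27 and 17 in Scml2-KO. In cKit it was 13 and 22 in wild type and 19 in Scml2-KO replicate 1, and Scml2-KO replicate 2 had no such peak. In PS it was 12 in wild-type replicate 2 and 16 in Scml2-KO replicate 2, and no RS library had it. Island A was therefore called in 7 of 8 spermatogonial and 2 of 8 adult libraries.

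Island B was higher than island A wherever both were called. Its pileup in Thy1 was 64 and 79 in wild type and 70 and 33 in Scml2-KO, and in cKit it was 56 and 56 in wild type and 64 and 32 in Scml2-KO. In PS it was 55 in wild-type replicate 2 and 52 in Scml2-KO replicate 2. In RS it was 23 and 17 in the same replicates. All 8 spermatogonial libraries and the 4 adult replicate 2 libraries had island B, and none of the 4 adult replicate 1 libraries had either island.

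Both islands had a counterpart on chromosome 1. Pieces of mitochondrial DNA copied into nuclear chromosomes are known in mammals, as background. The RefSeq table (GRCm38.p6) lists the pseudogene Gm10222 at bases 24612404 to 24612700 of chromosome 1, whose 297 bp equal the length of ND4L, and Gm10925 at bases 24613971 to 24614651, whose 681 bp equal the length of ATP6 and which carries that gene's name as a synonym. Placed on these genes in reverse order, a position on chromosome 1 and its mitochondrial partner sum to 24622577 from the one pair and 24622578 from the other. On this scale the mitochondrial bases 6386 to 11049, the corrected edges of the blocks, correspond to bases 24611528 to 24616192 of chromosome 1. Every library had exactly 2 peaks there, 32 in all, which the authors' annotation named intergenic near Lmbrd1.

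The summits of those 2 nuclear peaks mirrored the islands. The nuclear counterpart of A had its summit between 24613115 and 24613119, within 0 to 12 bases of the mirrored island A summit in the 9 libraries with both. The counterpart of B had its summit between 24612750 and 24612754, within 0 to 9 bases in 12 libraries. The nuclear pileup of A had a lowest value of 138, a median of 144.5 and a highest value of 147 in spermatogonia, and 96, 121 and 145 in adult cells. That of B had 117, 124 and 130 in spermatogonia and 84, 104.5 and 124 in adult cells. For comparison, the median nuclear pileup of a list was 6 to 14. Of the summed pileup of both copies, the mitochondrial island held 7.64% to 20.5% for A (9 libraries) and 13.5% to 37.8% for B (12 libraries). How reads that match both chromosomes were assigned is not given in the sources used here, and their part in the uncovered stretch and in the islands was not tested.

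**Figure D2:**
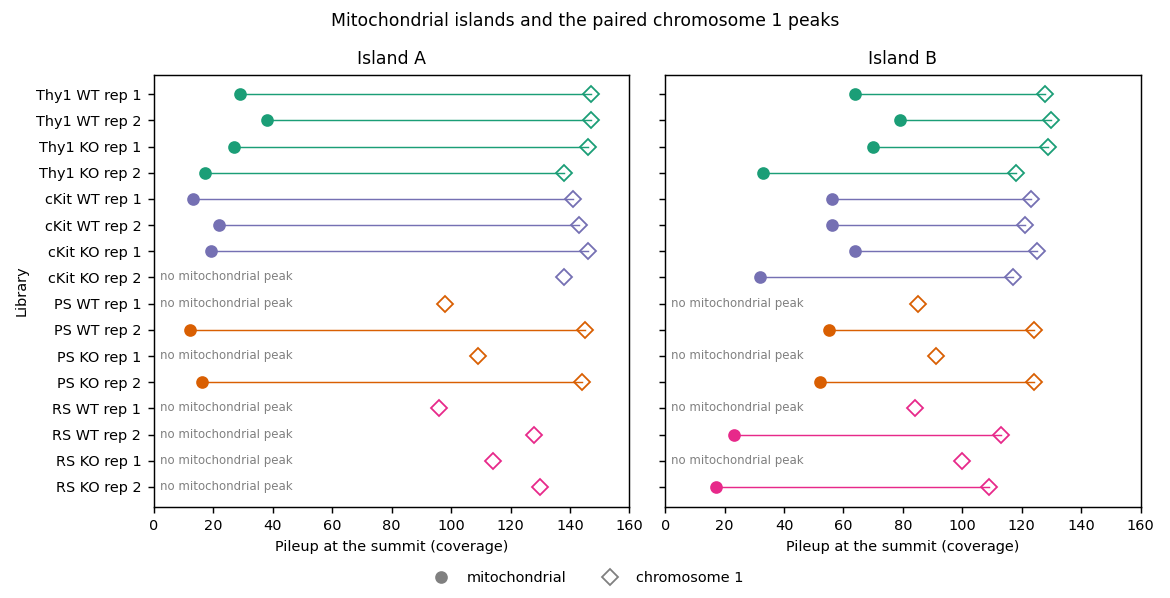
Pileup (coverage) at the summit of islands A and B (filled circles) and of the mirrored chromosome 1 peaks (open diamonds), 1 row per library. Nuclear peaks stand in all 16 rows at 84 to 147, mitochondrial ones in 9 rows (A) and 12 rows (B), and the 4 adult replicate 1 libraries hold none.

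Along the covered arc the pileup is known only at summits, which are local maxima. Arc summits ranged from 107 to 216 in PS Scml2-KO replicate 1 and from 238 to 287 in Thy1 Scml2-KO replicate 2. The median over all chrM summits of a library was 216 and 254 in Thy1 wild type and 245 and 273 in Thy1 Scml2-KO. In cKit it was 216 and 241.5 in wild type and 266 and 258.5 in Scml2-KO. In PS it was 179 and 287 in wild type and 196 and 291.5 in Scml2-KO, and in RS it was 136 and 248 in wild type and 152 and 262 in Scml2-KO. The 4 adult replicate 1 libraries were the lowest, and the 4 adult replicate 2 libraries lay among or above the spermatogonia.

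The highest chrM pileup of a library never passed 2 times its shortest peak length. It was 2 times that length in 3 Thy1 libraries (both wild-type libraries and Scml2-KO replicate 1) and 1.94 times in Thy1 Scml2-KO replicate 2. It was 1.97, 1.97, 1.99 and 1.92 times in cKit. PS replicate 2 libraries reached 1.97 times in both genotypes and RS replicate 2 libraries 1.84 and 1.85 times, against 1.56 and 1.62 times in PS replicate 1 and 1.49 and 1.74 times in RS replicate 1. A caller that keeps 1 read per position and strand and extends each to a fixed length cannot give more than 2 times that length, which is called the ceiling here, stated as background. Whether reads at the same position were removed is not given in the sources used here. With the median pileup as a percentage of this ceiling, 12 libraries lay at 87.3% to 98.4%, and the 4 adult replicate 1 libraries at 66.7% to 79.2%. The part of such a filter in these heights was not tested, and no test between stages was made on them.

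**Figure D3:**
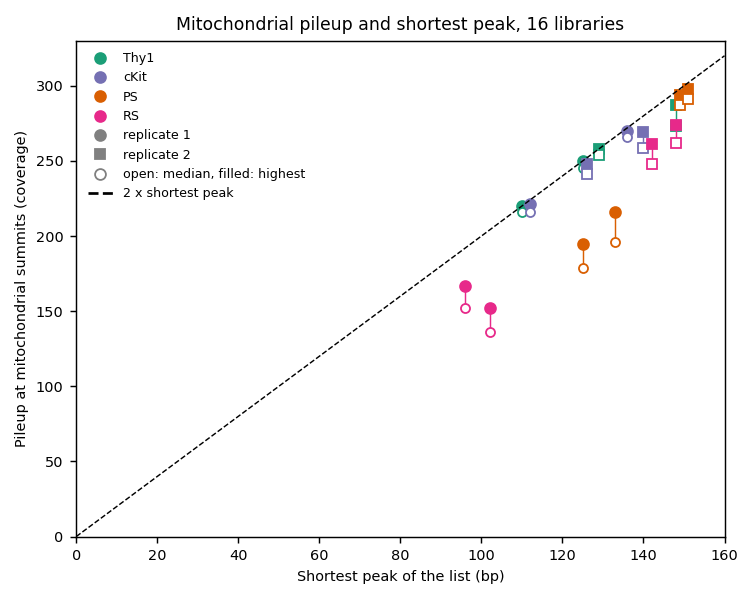
Highest (filled) and median (open) pileup at chrM summits against the shortest peak length of the list in bp, 1 pair of points per library; the dashed line is 2 times that length. No point lies above the line, and the 4 adult replicate 1 libraries (circles, PS and RS) lie below the rest.

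Fold enrichment, the authors' ratio of pileup to background with 1 added to both, set the chromosome apart from the nuclear genome. The median over chrM summits was 130.8 and 139.1 in Thy1 wild type and 125.3 and 217.7 in Thy1 Scml2-KO. For cKit it was 128.8 and 124.7 (wild type) and 142.2 and 136.1 (Scml2-KO). PS libraries had 92.9 and 144.7 in wild type and 102.4 and 158.9 in Scml2-KO, and RS libraries had 75.9 and 93.5 in wild type and 57.9 and 113.9 in Scml2-KO. Nuclear lines had medians of 4.92 to 7.06, so the chrM median was 11.8 to 39.1 times the nuclear one. Background was worked back here from the deposited pileup and fold enrichment of the chrM summits, so it is not a separate measure. The value of 217.7 in Thy1 Scml2-KO replicate 2 went with the lowest background of all lists, 0.258 against a median of 0.915. The median pileup of that library, 273, lay below those of both PS replicate 2 libraries. RS had the lowest mean of the 4 stages, 85.3 ± 24.0 (SD, n = 4), but its range overlapped that of PS. The backgrounds of 3 RS lists were the highest of all, 1.66 in wild-type replicate 2, 1.64 in Scml2-KO replicate 1 and 1.31 in Scml2-KO replicate 2, while the pileups of RS replicate 2, 248 and 262, lay within the spermatogonial range of 216 to 273. Why the background differed between lists was not tested.

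Most chrM summits were higher than any nuclear summit of the same library. In 14 libraries 81.6% to 97.1% of them passed the highest nuclear pileup. In PS wild-type replicate 1 only 6 of 39 did, and in RS wild-type replicate 1 only 1 of 50. Among the 100 lines of highest pileup in a list, 26 to 51 were mitochondrial.

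Along the arc, 1 spot stood below its surroundings in most libraries. Of 377 arc summits in the 12 libraries near the ceiling, 288 (76.4%) lay above 90% of it and 14 below 80%, and 8 of those 14 lay at the spacer between TrnN and TrnC (bases 5160 to 5191) or at the start of TrnC, with 3 more in the control region. In mammals the spacer within this tRNA cluster holds the origin of light-strand replication. A summit at 5167 to 5194 was present in 12 libraries, with a pileup of 54.6% to 77.8% (median 66.5%) of the arc median of its library. In 9 of the 12 it was the lowest summit of the arc or tied for it. In Thy1 the pileup there was 168 and 169 in wild type and 170 in Scml2-KO replicate 1. In cKit it was 161 and 161 in wild type and 158 and 155 in Scml2-KO. In PS it was 103 in wild-type replicate 1 and 107 in Scml2-KO replicate 1, and in RS it was 105 and 145 in wild type and 118 in Scml2-KO replicate 1. This spot was singled out after its values were seen.

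In the control region a low summit occurred at 15931 (pileup 136) in Thy1 wild-type replicate 1, at 15934 (138) in cKit wild-type replicate 1 and at 15924 (95) in RS wild-type replicate 1, each the lowest arc summit of its library. RS Scml2-KO replicate 1 had one at 15920 (118), tied with its spacer summit as the lowest. Over all libraries the 38 summits of the control region had a median of 87.7% of the ceiling, between 83.5% at TrnW and 84.7% at COX1 on one side and 92.7% at ND1 and 93.0% at ND5 on the other.

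**Figure D4:**
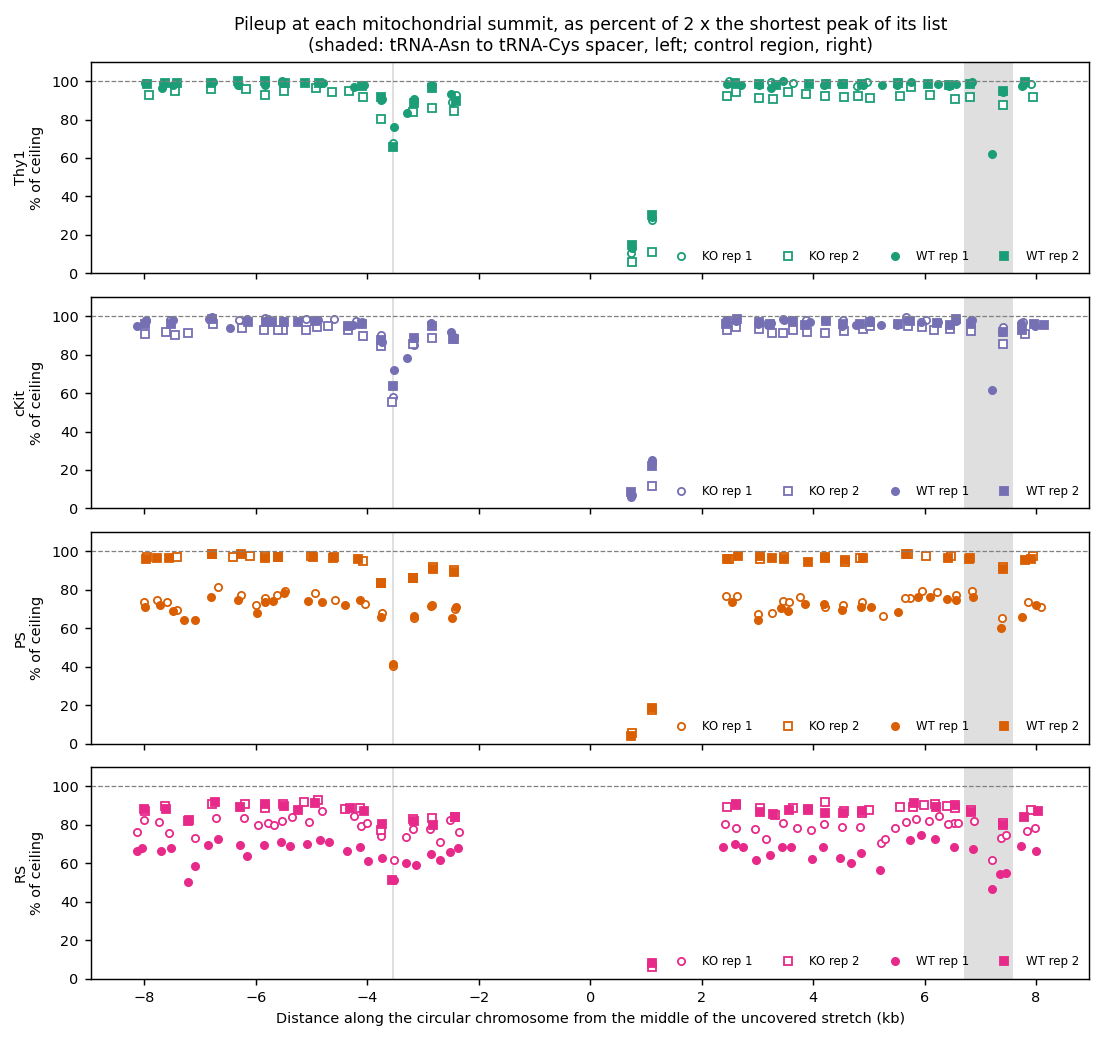
Pileup of every chrM summit as a percentage of the ceiling (2 times the shortest peak length) against distance in kb along the circle from the middle of the uncovered stretch, 1 panel per stage; filled symbols are wild type, open Scml2-KO, circles replicate 1 and squares replicate 2. Low summits at the TrnN to TrnC spacer (left shading) and the low islands near 1 kb stand out from most other summits.

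Some summit positions recurred in every library. Summits within 50 bp of a common position were joined into sites, which gave 79 sites, of which 36 were recurrent (in 8 or more of 16 libraries), 19 were in 12 or more, and 11 were in 1 library alone. The recurrent sites held 440 of the 576 summits (76.4%). Each site was placed where the most libraries had a summit, which raises these counts, and no chance level was computed for them. The 9 sites in all 16 libraries had median summits at 2882 in ND1, at 5551 and 5874 in COX1, at 11751, 12932 and 13258 in ND5, at 15555 and 16127 in the control region, and at 4970 in TrnW, the tRNA-Trp gene. Their median fold enrichments lay between 116 at TrnW and 129 at ND1. The TrnW site was the most exact of the 9, with all 16 summits between 4954 and 4976, whereas the other 8 spread over 39 to 96 bp.

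The next sites in order were those at 731 in mt-Rnr1 and 6275 in COX1 (15 libraries each), at 4629 in ND2 (14), and at 1932 in mt-Rnr2, 3208 in ND1 and 11174 in ND4 (13 each). The number of libraries differed most between spermatogonia and adult cells at island A (7 against 2). At 5 more sites it differed by 4. Spermatogonia had more at island B (8 against 4) and at 13737 in ND6 (6 against 2), and adult cells had more at 995 in mt-Rnr1 and 3104 in ND1 (1 against 5 each) and at 14542 in CYTB (0 against 4), of which the last 3 are not recurrent. Of the 36 recurrent sites, 14 were in more spermatogonial libraries, 11 in more adult libraries and 11 in equal numbers. Neighbouring arc summits lay a median of 190 to 427 bp apart, depending on the library.

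By gene, ND5 held 96 summits, CYTB 65, mt-Rnr2 60, COX1 58, mt-Rnr1 50, ND1 48, ND2 36, ND4 27 and ND6 26. Per kb and library, fully covered protein and rRNA genes were close to each other, at 3.55 for CYTB, 3.29 for ND5, 3.27 for mt-Rnr1, 3.13 for ND1 and ND6, 2.37 for mt-Rnr2 and 2.17 for ND2.

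To ask whether a position was used more in one stage, each 250-bp bin of the genome with a summit in 5 to 11 libraries was tested by a two-sided Fisher exact test of 8 spermatogonial against 8 adult libraries, with Benjamini-Hochberg adjustment over all 66748 such bins. In the whole genome 21.8% of tested bins passed an adjusted p of 0.05, 16.3% with more spermatogonial and 5.47% with more adult libraries. On chrM 49 bins held a summit, 18 could be tested and 0 passed, with 1 bin under an unadjusted p of 0.05. That bin, bases 9251 to 9500, holds island A (7 against 2 libraries, exact p = 0.0406, adjusted p = 0.0881). By the same Fisher exact test it passed when cKit Scml2-KO replicate 2 (adjusted p = 0.0192), PS wild-type replicate 2 (adjusted p = 0.0376) or PS Scml2-KO replicate 2 (adjusted p = 0.0364) was left out. These are the only libraries that go against the split of 7 against 2. Leaving any of them out had to sharpen it, so these runs are not a separate check. For Scml2-KO against wild type, tested exactly with the genotype labels permuted within stage, 0 of 14 chrM bins passed, against a background of 0% of 21085 bins. The smallest exact p that these permutations allow is 0.00154. After adjustment over 21085 bins a bin could pass only if very many bins lay near that value. These counts therefore do not show that summit positions are alike in both genotypes. Bin 1 to 250, at TrnF and mt-Rnr1, had the 1 unadjusted exact p under 0.05, with 3 Scml2-KO and 8 wild-type libraries (p = 0.0278, adjusted p = 1).

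No comparison of the number of chrM summits between stages passed its test. Wild-type libraries had 35 and 30 in Thy1 and 40 and 38 in cKit, and Scml2-KO libraries had 29 and 33 in Thy1 and 29 and 38 in cKit. In PS it was 39 and 31 in wild type and 38 and 28 in Scml2-KO, and in RS 50 and 32 in wild type and 51 and 35 in Scml2-KO. Spermatogonia had a mean of 34.0 ± 4.41 and adult cells of 38.0 ± 8.52 summits (SD, n = 8 each; two-sided exact permutation p = 0.283, adjusted p = 0.490 over 12 tests). Among replicate 1 libraries adult cells had 38 to 51 summits and among replicate 2 libraries 28 to 35, so the difference of spermatogonia minus adult cells was -11.3 in replicate 1 (exact permutation p = 0.0857) and 3.25 in replicate 2. Thy1 had 31.8 ± 2.75 and cKit 36.3 ± 4.92 summits (SD, n = 4 each, exact permutation p = 0.200). With the replicate numbers pooled, PS had 34.0 ± 5.35 and RS 42.0 ± 9.90 (SD, n = 4 each, exact permutation p = 0.257). The smallest p that 4 against 4 allows is 0.0286. Both comparisons had an adjusted p of 0.490. Within a replicate number PS and RS did not overlap, with 38 and 39 against 50 and 51 summits in replicate 1 (PS minus RS -12) and 28 and 31 against 32 and 35 in replicate 2 (-4), where 2 against 2 allow no exact p under 0.333. Thy1 minus cKit was -2.5 in replicate 1 and -6.5 in replicate 2.

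The covered share gave the lowest p of the 12 tests, and none of the 12 passed after adjustment. Peaks covered 75.4% ± 0.664 of the chromosome in spermatogonia and 73.9% ± 1.38 in adult cells (SD, n = 8 each; exact permutation p = 0.0221, adjusted p = 0.265). The ranges, 74.3% to 76.4% and 72.5% to 76.0%, overlapped. In replicate 1 alone the difference was 2.49 percentage points (exact permutation p = 0.0286, the smallest possible), and in replicate 2 alone it was 0.410 (exact permutation p = 0.600). The 4 adult replicate 1 libraries, at 72.5% to 73.0%, lack both islands. Thy1 minus cKit was 0.647 percentage points and PS minus RS 1.03, with adjusted p = 0.490 for each by the exact permutation test. In replicate 1 and replicate 2 these differences were 0.123 and 1.17 for Thy1 minus cKit and 0.377 and 1.68 for PS minus RS.

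For genotype, none of the 3 measures tested (summits, covered share and summits per 1000 lines) passed. Scml2-KO had 35.1 ± 7.55 and wild type 36.9 ± 6.51 summits (SD, n = 8 each; exact permutation within stage p = 0.588, adjusted p = 0.874), and the difference was -4.25 in replicate 1 and 0.75 in replicate 2. The covered share was 74.7% ± 1.43 in Scml2-KO and 74.5% ± 1.22 in wild type (SD, n = 8 each; exact permutation p = 0.656, adjusted p = 0.874), a difference of 0.431 percentage points in replicate 1 and -0.0199 in replicate 2. As summits per 1000 lines of the list, the means were 0.642 ± 0.555 in Scml2-KO and 0.582 ± 0.291 in wild type (SD, n = 8 each; exact permutation p = 0.790, adjusted p = 0.886). Island A was called in 4 Scml2-KO and 5 wild-type libraries and island B in 6 of each.

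The median chrM pileup was higher in Scml2-KO than in the wild-type library of the same stage and replicate number in 8 of 8 comparisons. Over all stages it was 243 ± 46.1 in Scml2-KO and 222 ± 47.2 in wild type (SD, n = 8 each; exact permutation within stage p = 0.392, adjusted p = 0.588 over 3 measures, a test added after the data were seen). The difference was 28 in replicate 1 and 13.6 in replicate 2. In each the exact permutation p was 0.125, the smallest possible, which the same direction in 8 of 8 comparisons fixes. That direction depends on the replicate numbers, on which file names and titles disagree and which were not taken as pairs. Scml2-KO replicate 1 lay below wild-type replicate 2 in Thy1 (245 against 254), PS (196 against 287) and RS (152 against 248). In cKit it lay above (266 against 241.5), and Scml2-KO replicate 2 lay above wild-type replicate 1 in every stage. The shortest peak length was longer in Scml2-KO in 7 of 8 comparisons, with means of 135 ± 17.9 and 124 ± 16.04 bp (SD, n = 8 each; exact permutation within stage p = 0.261, adjusted p = 0.588). As a percentage of the ceiling, which contains that length, the pileup was higher in Scml2-KO in 5 of 8 comparisons, with 89.8% ± 8.97 and 88.8% ± 12.7 (SD, n = 8 each; exact permutation within stage p = 0.875, adjusted p = 0.875).

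**Figure D5:**
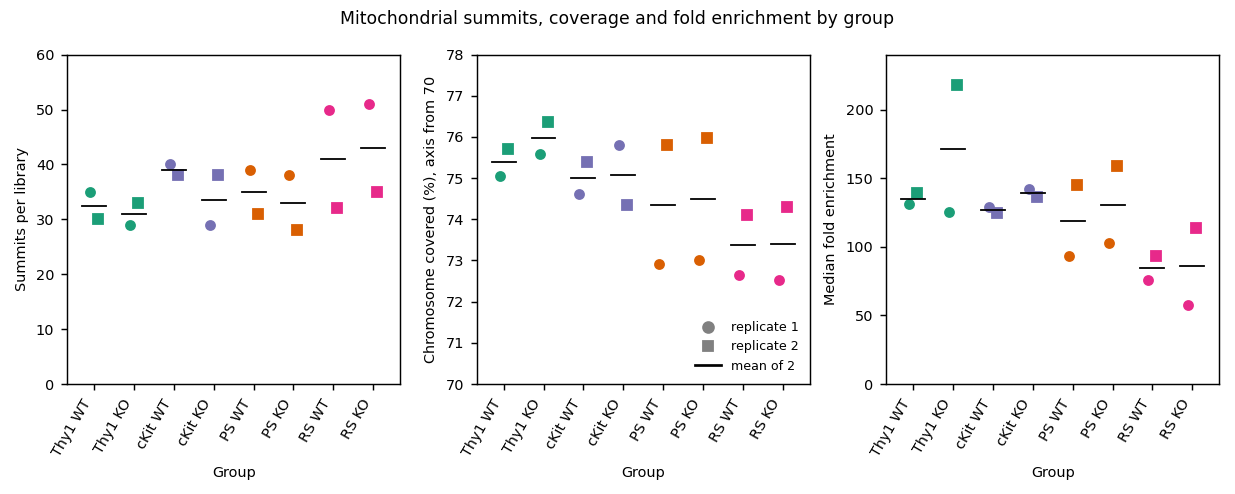
Number of chrM summits, percentage of chrM covered by peaks (axis from 70%) and median fold enrichment at chrM summits, for each of the 8 groups; points are libraries, the bar is the mean of 2. In PS and RS replicate 1 has more summits, less coverage and lower fold enrichment than replicate 2 in both genotypes.

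No relation of list length to the mitochondrial lines passed its test. Lists ranged over an order of magnitude, yet the correlation of list length with the number of chrM summits was 0.36 for Pearson's r (permutation p = 0.173) and 0.23 for Spearman's rho (permutation p = 0.396) over 16 libraries, with 0.13 within replicate 1 and -0.39 within replicate 2 for r. Without the 2 libraries farthest from the median length, r was -0.03. The correlation of list length with the covered share was -0.34 for r (permutation p = 0.192) and -0.33 for rho (permutation p = 0.216), and with median fold enrichment -0.40 for r (permutation p = 0.124) and -0.39 for rho (permutation p = 0.137). Adjusted over the family of 6 relations, no p for list length was under 0.186.

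The shortest peak length, added as a measure after the data were seen, went with fewer summits. Over 16 libraries Pearson's r was -0.75 (permutation p = 0.00086, adjusted p = 0.00516) and Spearman's rho -0.64 (permutation p = 0.00876, adjusted p = 0.0337). Within replicate 1 r was -0.80 (exact permutation p = 0.0169) and within replicate 2 it was -0.40 (exact permutation p = 0.320). Without the 2 libraries farthest from the median, which were RS replicate 1 of both genotypes, r was -0.44 (permutation p = 0.114). The sign stayed the same, and the size of the relation depended in part on those libraries. If reads were extended to this length, it also shaped the coverage on which the summits were called. The summit number is then not independent of it, and the part of the calling in this relation was not tested. The covered share contains the block edges, which follow this length as given above, so its r of 0.56 is a description only. Fold enrichment contains the pileup, whose highest chrM value had an r of 0.90 with this length. The r of 0.62 and rho of 0.62 for median fold enrichment are therefore a description only. Within replicate 1 and replicate 2 the r for fold enrichment was 0.61 and 0.32. Without the same 2 libraries the r for fold enrichment over the rest was 0.35, so its size depended in part on them too.

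Nuclear genes that copy, pack and transcribe mitochondrial DNA had promoter peaks in nearly every library. Of a list of 20 such genes, 16 had a peak with the authors' promoter label in all 16 libraries, a share of 80%, against 38.6% of all 21736 named genes (8388). In a single library 85% to 100% of the list and 50.1% to 73.1% of all named genes had one. They include Tfam, which packs mitochondrial DNA and starts its transcription, Polg and Polg2, the subunits of its DNA polymerase, Twnk, the helicase, Ssbp1, the single-strand binding protein, Top1mt, a topoisomerase, and Nrf1 and Gabpa, nuclear activators of mitochondrial genes. Tfb1m, Tfb2m, Mterf2, Mterf3, Mgme1, Lonp1, Primpol and Rnaseh1 complete the 16. Polrmt, the mitochondrial RNA polymerase, had a promoter peak in 14 libraries and Tefm, its elongation factor, in 15.

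Ppargc1a and Mterf1a were the 2 genes of the list with fewer. Ppargc1a encodes PGC-1alpha, a coactivator of mitochondrial biogenesis, and had a promoter peak in all 8 spermatogonial libraries and in 1 of 8 adult libraries, PS Scml2-KO replicate 2 (two-sided Fisher exact p = 0.0014, adjusted p = 0.00877 over 3917 genes tested by the same rule). In that test, added after the data were seen, 33.3% of genes passed, 24.8% with more spermatogonial and 8.48% with more adult libraries, so a call of this kind was common. The somatic marker promoters given above moved the same way, and their part was not tested. Mterf1a, a transcription termination factor named Mterf in the lists, had a promoter peak in 4 spermatogonial and 1 adult libraries (Fisher exact p = 0.282, adjusted p = 0.377).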

How the data were processed

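Each library has its own peak list, with 1 line per summit. Per the submitters' processing notes, Bowtie 1.1.1 and MACS2 2.1.0.20140616 were used with the build mm10. Caller options, duplicate handling and the treatment of reads with several matches are unknown here. The deposited pileup is a signal, the unscaled coverage at the summit. The fold enrichment is a ratio deposited by the authors, and the significance columns hold −log10 values of p and q, as deposited. Read depth is unknown here, so no precision from depth is given, and a missing peak means only that none was called. Scores are the authors' and describe peaks within a list. File names and titles disagree on replicate numbers, and titles were used.

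Lines on chrM were kept and lines with the same start and end were joined to peaks. Gene positions came from RefSeq (GRCm38.p6, 37 mitochondrial genes), and the chromosome's length was taken as the highest peak end, 16299. Sites were built greedily within 50 bp, and the sites named were those in 12 or more libraries (at most 15, by number of libraries, then fold enrichment) plus the 3 that differed most between spermatogonia and adult cells, with 3 more that tied with them named after their values were seen. Counts, covered share and summits per 1000 lines were compared by exact permutation (two-sided), adjusted by Benjamini-Hochberg over 12 tests. Bins of 250 bp were tested over the whole genome. Correlations used 100000 permutations, or all permutations for 8 libraries. Alternatives were lists cut to 21171 lines, −log10 q of at least 5, other bins and windows, each replicate number alone, a replicate block, and leaving out each library. Members and gene lists were chosen with earlier results of these data known. Python 3.11.15, numpy 2.4.6, pandas 2.3.3, scipy 1.17.1 and matplotlib 3.10.9 were used. No sequence is shown.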

Additional observations from a re-analysis of the deposited data

Results flagged for a closer look

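In Thy1 Scml2-KO replicate 2 the median chrM pileup was 92.2% of the ceiling (2 times the shortest peak length of the list), whereas the other 3 Thy1 libraries lay at 98.0% to 98.4%. The gap to the nearest of them was large for the range of a group of 4. Among 24 groups examined in this way 1 stood out, and chance puts about 1 in 20 past this limit.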

How the results depend on the processing

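None of the 12 tests of summits, coverage and summits per 1000 lines passed after adjustment under any alternative run, but some alternatives were too small to pass. With 1 replicate number alone the smallest exact permutation p was 0.333 for Thy1 against cKit and for PS against RS and 0.125 for genotype, and with a replicate block it was 0.0556 for the former pair of comparisons, so these say nothing about stability. Among replicate 2 libraries alone the sign turned for spermatogonia minus adult cells in summits (3.25) and in summits per 1000 lines (0.0287), for Scml2-KO minus wild type in summits (0.75) and covered share (-0.0199 percentage points), for PS minus RS per 1000 lines (0.00302), and for the r of list length with summits (-0.39). That r was -0.033 without the 2 libraries farthest from the median. Scml2-KO minus wild type per 1000 lines turned to -0.0768 with lists of equal length and to -0.185 in replicate 1 alone.

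Leaving out each library in turn, spermatogonia minus adult cells ranged from -5.43 to -2.14 summits, from 1.25 to 1.75 percentage points covered and from -0.231 to -0.00279 summits per 1000 lines. Thy1 minus cKit ranged from -6.92 to -3.25, from 0.415 to 0.901 and from -0.734 to -0.219, in the same order. PS minus RS ranged from -11.3 to -5, from 0.515 to 1.54 and from -0.223 to 0.0342, and Scml2-KO minus wild type from -4 to 0.5, from -0.164 to 0.575 and from -0.133 to 0.253. The number of chrM bins called between spermatogonia and adult cells ranged from 0 to 1 and the number of recurrent sites from 32 to 36. A window of 25 bp in place of 50 bp left 23 recurrent sites, and a window of 100 bp 34. The cause of these changes was not tested. Libraries with a Ppargc1a promoter peak differed by 6 to 8 between spermatogonia and adult cells, with an adjusted Fisher exact p of 0.00255 to 0.00877 over all alternatives.

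The replicate numbers share no stated animal or day. Deviations of same-numbered libraries correlated by -0.14 to 0.26 (28 pairs of groups, 5 over 0.1). Since not every pair was over 0.1, the numbers were not taken as pairs, although replicate 1 had the longer list and the shorter shortest peak in 8 of 8 groups. With a replicate block the covered share of spermatogonia minus that of adult cells was 1.45 percentage points, with an exact permutation p of 0.0110 (adjusted p = 0.132), and 0 of 12 tests passed. PS minus RS in summits had an exact permutation p of 0.0556 with the block, the smallest possible, in place of 0.257. For Scml2-KO minus wild type the block gave an exact permutation p of 0.00781 (adjusted p = 0.0234) for the median chrM pileup, higher by 20.8. That p is the smallest possible with the block and was fixed once 8 of 8 comparisons went the same way. For the shortest peak length, longer by 10.3 bp, the exact permutation p was 0.0313 (adjusted p = 0.0469), and for the percentage of the ceiling 0.727. These tests were added after the data were seen and rest on replicate numbers that were not taken as pairs. The percentage of the ceiling turned its sign in replicate 2 alone (-2.08) and ranged from -2.16 to 4.02 as each library was left out. Read depth is unknown, and 76.4% of arc summits in 12 libraries lay above 90% of the ceiling.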
